A study of Mus musculus with 4 samples.

Results

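The CC chemokines described here were 10 of the 33696 genes counted in nuclei of the injured mouse brain: Ccl2, Ccl3, Ccl4, Ccl5, Ccl6, Ccl7, Ccl8, Ccl9, Ccl12 and Ccl19. They were chosen for their unique molecular identifiers (UMIs, each standing for 1 captured transcript) in all 4 count matrices, by cell type, fibroblast state, region and library. Their levels are therefore a description and carry no test. All mice had received a photothrombotic (PT) lesion, in which light shone on the skull activates a dye in the blood and clots cortical vessels, and brains were taken at 21 days post-injury (dpi). The control-labelled library came from mice whose genotype label is WT. The Cxcl12-cKO-labelled library (cKO-labelled) came from mice carrying Col1a2(creER), a tamoxifen-inducible Cre recombinase active in collagen-producing fibroblasts, together with Cxcl12(flox). With a reporter allele, the study found that this Cre reached only part of the brain fibroblasts. For its deletion strains it describes the controls as given tamoxifen where relevant and, among others, as lacking Cre or carrying a single flox allele, and the labels do not say which of these the WT mice were. Each library pooled 1 male and 1 female mouse, and the age of the mice is not given in the labels. Within each library, nuclei of the lesion and of the perilesional parenchyma carried separate tags and were mixed at 75% and 25%. With 1 library for each genotype there was no replicate library, so the intervals given are 95% intervals that cover counting error only, and genotype and library cannot be told apart.

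CC chemokines are small secreted proteins with a pair of adjacent cysteines near the amino terminus. They bind to G-protein-coupled receptors on leukocytes and guide the cells along a gradient. In the injured brain they are best known from microglia, macrophages and astrocytes, and from fibroblasts at the brain borders. Ccl2, Ccl7, Ccl8 and Ccl12 are the monocyte chemoattractant proteins, of which Ccl2, Ccl7 and Ccl12 act through the receptor Ccr2. Ccl3, Ccl4 and Ccl5 attract T cells and macrophages, Ccl6 and Ccl9 are ligands of Ccr1 found in rodents, and Ccl19 is a ligand of Ccr7 that stromal cells of lymphoid tissue produce. Secreted protein was not measured, and a nucleus holds only part of the messenger RNA of its cell.

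After filtering, the matrices held 8095 lesional and 2877 parenchymal nuclei of the control-labelled library and 7933 lesional and 2838 parenchymal nuclei of the cKO-labelled library. The median depth was 2962 and 2975 UMIs for each lesional nucleus and 15915 and 16648 UMIs for each parenchymal nucleus. The 2 libraries shared 22 barcodes between their lesional matrices, 15 and 9 between unlike regions and 1 between their parenchymal matrices. Cxcl12, the gene named in the label, was counted 1514 times in lesional fibroblast-like nuclei of the control-labelled library, at 106 counts per 1000000 UMIs of those nuclei (CPM, interval 101–111), and 3146 times in those of the cKO-labelled library, at 215 CPM (interval 207–222). This direction goes against the label. Which exons were deleted is not given in any source read here, and a count near the 3′ end checks nothing about a deletion elsewhere, so the library names are used here only as labels. Whether the 2 labels are exchanged was not tested, and if they were, every ratio between the libraries given here would change its sign.

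The members were counted mainly in the lesion. They summed to 1118 UMIs in lesional nuclei and 82 in parenchymal nuclei of the control-labelled library, or 33.4 and 1.72 CPM. The cKO-labelled library gave 898 and 104 UMIs, or 29.1 and 2.16 CPM. All 10 members exceeded 1.5-fold in favour of the lesion in both libraries, where 37.7% of the genes with at least 20 UMIs in each comparison did so, and the members had been chosen on these counts. By member, lesional UMIs ran from 33 (Ccl19) to 227 (Ccl8) in the control-labelled library and from 41 (Ccl12) to 181 (Ccl4) in the other. Parenchymal UMIs were at most 13 for any member but Ccl5, which had 28 and 39. The lesional excess was smallest for Ccl5 in the cKO-labelled library, with 62 lesional against 39 parenchymal UMIs and a log2 ratio of 1.30 (interval 0.71 to 1.92). Of the parenchymal Ccl5 UMIs of both libraries, 42 lay in excitatory neuron-like nuclei, at 0.532 CPM (interval 0.383–0.719), spread over 40 nuclei of 4287. In inhibitory neuron-like nuclei the level was higher, at 1.26 CPM (19 UMIs in 17 of 1027 nuclei, interval 0.761–1.97). A single endothelial-like nucleus held 3 more. In myeloid-like nuclei, the class that takes in microglia, macrophages and monocytes, the intervals of both regions overlapped. The summed members stood at 122 CPM (interval 116–129) in 3955 lesional and at 130 CPM (interval 83.4–194) in 78 parenchymal myeloid-like nuclei, which were 24.7% of lesional and 1.36% of parenchymal nuclei.

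Myeloid-like nuclei held 72.3% of the members' lesional UMIs in the control-labelled library (808 of 1118, interval 69.5–74.9%) and 66.3% in the cKO-labelled library (595 of 898, interval 63.1–69.3%), while they were 21.3% and 28.1% of the lesional nuclei. Fibroblast-like nuclei, at 51.6% of the nuclei in each library, held 13.1% and 20.4%. In CPM over both libraries, myeloid-like nuclei (122 CPM), dendritic-like nuclei (115 CPM, interval 78.7–162) and T cell-like nuclei (112 CPM, interval 83.6–147) had overlapping intervals. Astrocyte-like nuclei stood at 19.1 CPM, fibroblast-like nuclei at 11.4 CPM and excitatory neuron-like nuclei at 2.23 CPM. Depth bears on the share of nuclei with a count. At full depth, 17.4% of control-labelled lesional myeloid-like nuclei and 2.97% of excitatory neuron-like nuclei held a UMI of a member, at median depths of 2179 and 13947 UMIs. Once each nucleus was thinned to 1000 UMIs, which left out 95 myeloid-like nuclei, the shares were 9.49% (155 of 1633) and 0 of 505. For scale, 3 of those 505 nuclei would be 0.594%. In the cKO-labelled library the thinned shares were 6.07% (128 of 2110) and 0.426% (1 of 235).

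**Figure D1:**
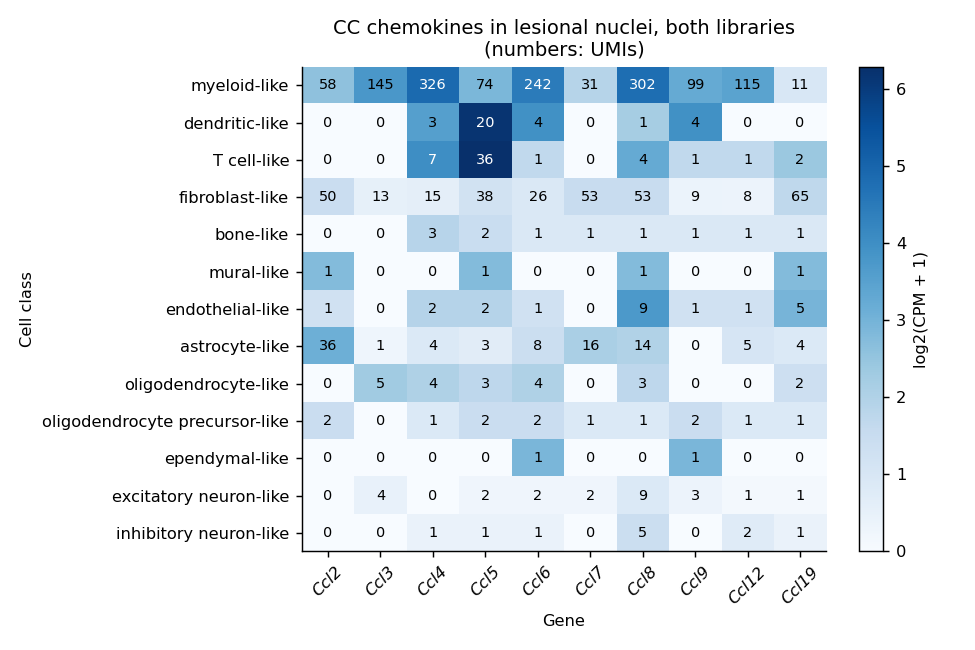
Levels of the 10 members (columns) in 13 classes of lesional nuclei (rows), as log2(CPM + 1) in colour and as UMIs in numbers, with both libraries summed. Ccl3, Ccl4, Ccl6, Ccl8, Ccl9 and Ccl12 have most of their UMIs in the myeloid-like row, and Ccl5 has its darkest cells in the T cell-like and dendritic-like rows. Ccl19 has most of its UMIs in the fibroblast-like row and its darkest cell, on 5 UMIs, in the endothelial-like row.

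Among the monocyte chemoattractants, Ccl8 (ENSMUSG00000009185) and Ccl12 (ENSMUSG00000035352) were counted mostly in myeloid-like nuclei, while Ccl2 (ENSMUSG00000035385) and Ccl7 (ENSMUSG00000035373) were spread over 3 classes. Myeloid-like nuclei held 302 of the lesional Ccl8 UMIs of both libraries (74.9%) and 115 of the Ccl12 UMIs (85.2%). Ccl2 had its highest level in astrocyte-like nuclei, at 7.57 CPM (36 UMIs in 23 nuclei, interval 5.30–10.5). It stood in myeloid-like nuclei at 5.06 CPM (58 UMIs, interval 3.84–6.54) and in fibroblast-like nuclei at 1.73 CPM (50 UMIs, interval 1.28–2.28). The astrocyte-like and myeloid-like intervals overlap, and the fibroblast-like interval lies below both. Ccl7 gave 31 UMIs in myeloid-like, 53 in fibroblast-like and 16 in astrocyte-like nuclei, at 2.70, 1.83 and 3.37 CPM with overlapping intervals. In parenchymal astrocyte-like nuclei, all 8 Ccl7 UMIs came from a single nucleus.

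Ccl3 (ENSMUSG00000000982) and Ccl4 (ENSMUSG00000018930) were also counted mostly in myeloid-like nuclei, with 86.3% (145 UMIs) and 89.1% (326 UMIs) of their lesional counts there. Ccl6 (ENSMUSG00000018927) had 82.6% (242 UMIs) and Ccl9 (ENSMUSG00000019122) had 81.8% (99 UMIs) in the same class. By CPM Ccl9 was highest in dendritic-like nuclei, at 14.4 CPM on 4 UMIs (interval 3.92–36.8). It stood at 8.63 CPM (interval 7.01–10.5) in myeloid-like nuclei, and the 2 intervals overlapped. Ccl5 (ENSMUSG00000035042), a product of activated T cells and other leukocytes, behaved differently. Its level was 77.5 CPM in T cell-like nuclei (36 UMIs, interval 54.3–107) and 71.9 CPM in dendritic-like nuclei (20 UMIs, interval 43.9–111), against 6.45 CPM in myeloid-like nuclei (74 UMIs, interval 5.07–8.10). Of those 74 UMIs, 58 came from a single nucleus, and without the 3 nuclei of highest member counts, described with subcluster 4, the myeloid-like level was 1.40 CPM (16 UMIs, interval 0.799–2.27). In the T cell-like subcluster led by Il12rb2, Btla and Cd6, 18 of 126 nuclei held a Ccl5 UMI, at 164 CPM. Ccl19 (ENSMUSG00000071005) had 69.1% of its lesional UMIs in fibroblast-like nuclei (65 UMIs in 59 nuclei, 2.25 CPM, interval 1.73–2.86). These were 51.6% of the lesional nuclei in each library. By CPM Ccl19 was highest in endothelial-like nuclei, at 6.83 CPM on 5 UMIs (interval 2.22–15.9), and the 2 intervals overlapped. Mural-like nuclei (5.85 CPM, 1 UMI, interval 0.148–32.6) and T cell-like nuclei (4.31 CPM, 2 UMIs in 1 nucleus, interval 0.522–15.6) also had higher values. Their intervals overlapped that of fibroblast-like nuclei, so no order is read from them. A pseudogene copy, Ccl19-ps2, is a feature of its own in the files, and reads shared with such copies could be split or lost, which makes the Ccl19 counts uncertain.

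Lesional myeloid-like nuclei were divided into 7 subclusters without use of the chemokine genes, and the members were spread unevenly over them. Subcluster 0, microglia-like by its markers, was 44.8% of the class in the control-labelled library and 42.0% in the cKO-labelled library. Ccl4 stood there at 39.3 and 36.9 CPM (69 and 87 UMIs), and Ccl3 at 13.1 and 16.5 CPM (23 and 39 UMIs). Both stood higher in subcluster 4, described below. Ccl4 was there at 119 and 59.5 CPM (27 and 14 UMIs), and Ccl3 at 114 and 68.0 CPM (26 and 16 UMIs). In the control-labelled library, a single nucleus held 20 of those Ccl3 UMIs. Subcluster 3, border-associated macrophage-like with Cd163, Cbr2 and Clec10a among its leading genes, held Ccl8 at 206 CPM (69 UMIs in 33 of 156 nuclei) and 343 CPM (79 UMIs in 29 of 110 nuclei). Ccl12 reached 56.8 and 65.1 CPM there (19 and 15 UMIs). Subcluster 1, led by Mamdc2, Ksr2 and Adra1a and left unnamed, held Ccl6 at 32.8 CPM (40 UMIs) and 13.9 CPM (33 UMIs).

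Subcluster 4, also unnamed and led by Hp, S100a4 and Cd52, had the highest summed level among the myeloid subclusters in the control-labelled library, 1290 CPM against 398 CPM in subcluster 3. In the cKO-labelled library it stood at 383 CPM, below the 499 CPM of subcluster 3. It had 65 nuclei in the control-labelled library, 3.76% of the class, which held 294 UMIs of the members, 26.3% of all in lesional nuclei. Of those 294 UMIs, 206 came from only 3 nuclei, described below, so the 1290 CPM and the 26.3% rested largely on them. The level of the subcluster without them is not given here. The 78 nuclei of the cKO-labelled library held 90 UMIs, or 10.0%. Ribosomal protein genes made up 7.67% and 7.88% of the UMIs of this subcluster in the 2 libraries and between 0.304% and 0.562% in the other 6. Its median mitochondrial share was 2.82% and 2.04%. Whether these barcodes held whole cells, and the part of RNA composition in the high chemokine counts, was not tested.

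Single nuclei held a large part of these counts. In the control-labelled library, 3 lesional nuclei had over 50 UMIs of the members each, and no nucleus of the cKO-labelled library did. All 3 were assigned to the female mouse and lay in subcluster 4. Together they held 206 UMIs, or 18.4% of the members' lesional UMIs in that library. The first had 4128 UMIs in all, with 26 of Ccl6, 20 of Ccl3, 11 of Ccl2, 10 of Ccl9 and 9 of Ccl4. The second had 13515 UMIs, with 55 of Ccl8 and 12 of Ccl6. The third had 9901 UMIs, with 58 of Ccl5, which is 47.5% of all lesional Ccl5 UMIs of its library. Ribosomal protein genes took 9.30%, 8.32% and 31.5% of their UMIs. They held 0, 12 and 11 UMIs of the leukocyte gene Ptprc, 3, 9 and 0 of the macrophage receptor Csf1r and 0, 1 and 2 of the fibroblast collagen Col1a1, in the order given. The 10 richest nuclei held 27.0% of the members' UMIs in the control-labelled library and 10.9% in the cKO-labelled library. The number of lesional nuclei with a UMI of any member was nearly the same, 539 of 8095 (6.66%) and 535 of 7933 (6.74%).

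**Figure D2:**
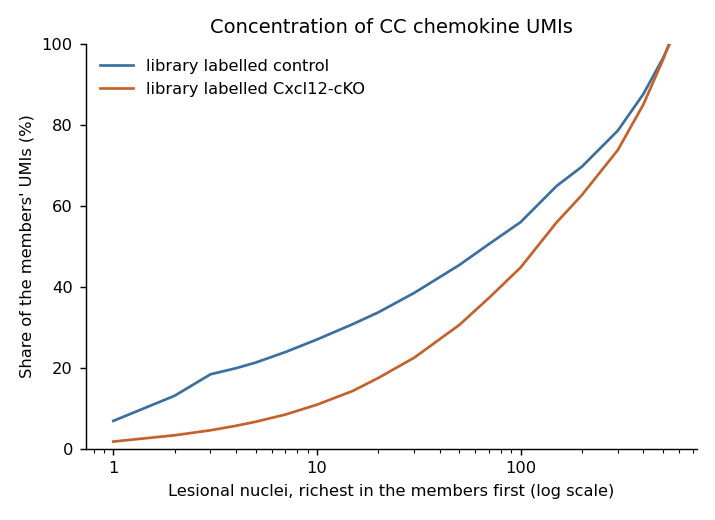
Cumulative share of the members' lesional UMIs (vertical axis, percent) over lesional nuclei ranked from the richest (horizontal axis, log scale), for each library. The curve of the control-labelled library stands at 18.4% after 3 nuclei, where that of the cKO-labelled library stands at 4.57%, and both reach 100% at 539 and 535 nuclei.

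Some members were counted in the same nucleus, whether or not they neighbour each other in the genome, and the pairs named here were picked after their values were seen. All members but Ccl19 lie on chromosome 11 in the RefSeq annotation, and Ccl19 lies on chromosome 4. Among lesional myeloid-like nuclei of both libraries, 37.0% of the 81 nuclei with a Ccl3 UMI also held Ccl4 (30 nuclei, interval 26.6–48.5%), against 3.77% of the nuclei without Ccl3. Of the 22 nuclei with Ccl7, 40.9% also held Ccl2 (9 nuclei, interval 20.7–63.6%), against 0.610%. Of the 70 nuclei with Ccl9, 21.4% also held Ccl6 (15 nuclei, interval 12.5–32.9%), against 3.50%. The protein-coding genes of each of these 3 pairs stand next to each other in that annotation. Nuclei with Ccl3, Ccl7 or Ccl9 were deeper than those without, at a median of 3248 UMIs with Ccl3 and 2294 without. Nuclei with Ccl12, given below, were not, at 2145 UMIs with and 2309 without. The part of depth in the shares of this paragraph was not tested. The pair Ccl3 and Ccl4 gave 41.2% (14 of 34) in the control-labelled library and 34.0% (16 of 47) in the cKO-labelled library. Of the 74 nuclei with Ccl12, 13.5% held its neighbour Ccl8 (interval 6.68–23.5%), against 2.76% of those without. Pairs that are not neighbours were also found together. Of the 117 nuclei with Ccl8, 13.7% held Ccl6 (16 nuclei, interval 8.02–21.3%), against 3.52% of those without, and of the 33 nuclei with Ccl2, 15.2% held Ccl9 (5 nuclei, interval 5.11–31.9%), against 1.66%. Neighbours and other pairs were not compared by a test. Nuclei with at least 3 members numbered 10 of 1728 in the control-labelled library and 11 of 2227 in the cKO-labelled library.

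The comparison of the libraries sets the myeloid and stromal levels of these chemokines side by side under the 2 genotype labels. In lesional myeloid-like nuclei the summed members gave 808 UMIs (174 CPM, interval 162–187) in the control-labelled library and 595 UMIs (87.1 CPM, interval 80.2–94.3) in the cKO-labelled library, a log2 ratio of −1.00 (interval −1.16 to −0.85). Without the 3 richest control-labelled nuclei the ratio was −0.59 (interval −0.75 to −0.42), and by the share of nuclei with a UMI, 17.4% and 13.5%, it was −0.37 (interval −0.61 to −0.14). Of the 9 members with at least 20 UMIs in the class, 6 were past 1.5-fold in the lower direction, where 5.64% of all genes with enough UMIs were, and 1 (Ccl7) in the higher direction, where 5.07% of genes were. Their median log2 ratio was −0.85, and that of the 14628 genes tested was −0.02. The members had been chosen with these counts known, so nothing is read from that excess. Without the 3 nuclei, 2 members were past 1.5-fold in the lower direction, and Ccl5 no longer had 20 UMIs.

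Those 2 were Ccl12 and Ccl6. Ccl12, a monocyte chemoattractant of rodents, gave 78 UMIs in 51 of 1728 myeloid-like nuclei of the control-labelled library and 37 UMIs in 23 of 2227 nuclei of the cKO-labelled library. Its level was 16.8 and 5.41 CPM, with a log2 ratio of −1.63 (interval −2.24 to −1.05), and no nucleus held more than 5 of its UMIs. By nuclei the ratio was −1.50 (interval −2.29 to −0.78), and after thinning to 1000 UMIs the shares were 1.71% (28 nuclei, interval 1.14–2.47%) and 0.521% (11 nuclei, interval 0.261–0.931%). Ccl6 gave 163 UMIs in 86 nuclei and 79 UMIs in 65 nuclei, at 35.2 and 11.6 CPM, which gave a log2 ratio of −1.60 (interval −2.01 to −1.21). Its ratio was −1.23 without the 3 nuclei (interval −1.66 to −0.81) and −0.77 by nuclei (interval −1.26 to −0.29). Its thinned shares were 2.51% (interval 1.81–3.39%) and 0.711% (interval 0.398–1.17%). For both genes the levels of the 2 libraries were separated beyond counting error on each of these scales.

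The other members were not separated on all scales. Ccl5 had the most extreme ratio by UMIs, −3.73 (67 against 7 UMIs), yet it rested on 9 and 7 nuclei, and without the 3 nuclei the ratio was −0.91 (interval −2.59 to 0.66). Ccl8 moved from −0.96 (172 against 130 UMIs) to −0.41 (interval −0.78 to −0.03), and by nuclei, 60 and 57, to −0.44 (interval −0.99 to 0.11). Ccl2 moved from −0.85 to −0.27 (interval −1.15 to 0.64). Ccl4 gave 168 and 158 UMIs and a ratio of −0.65 (interval −0.97 to −0.33), but 4.63% and 4.31% of nuclei held it, a ratio of −0.10 (interval −0.55 to 0.34). Ccl3 (69 and 76 UMIs) and Ccl9 (47 and 52 UMIs) had intervals that included 0 on every one of these scales, and so did Ccl7 (9 and 22 UMIs, ratio 0.68, interval −0.45 to 2.03). Over all lesional nuclei the summed members had a log2 ratio of −0.20 (interval −0.33 to −0.07), which became 0.09 (interval −0.04 to 0.23) without the 3 nuclei.

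**Figure D3:**
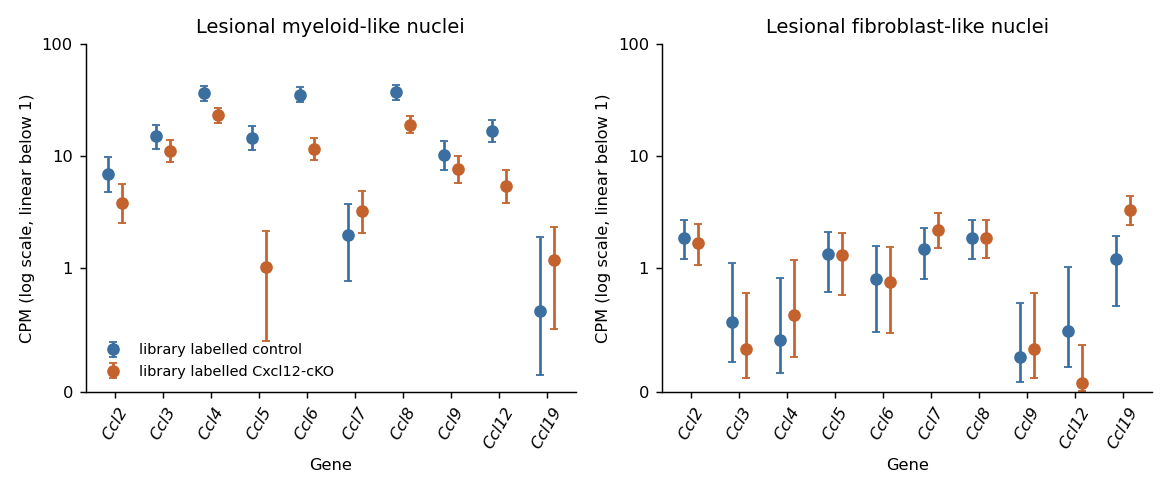
CPM of each member (vertical axis, log scale that is linear below 1) in lesional myeloid-like and fibroblast-like nuclei of each library, with exact 95% Poisson intervals. In myeloid-like nuclei Ccl12 stood at 16.8 and 5.41 CPM and Ccl6 at 35.2 and 11.6 CPM, and in fibroblast-like nuclei Ccl19 stood at 1.19 and 3.28 CPM.

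**Figure D4:**
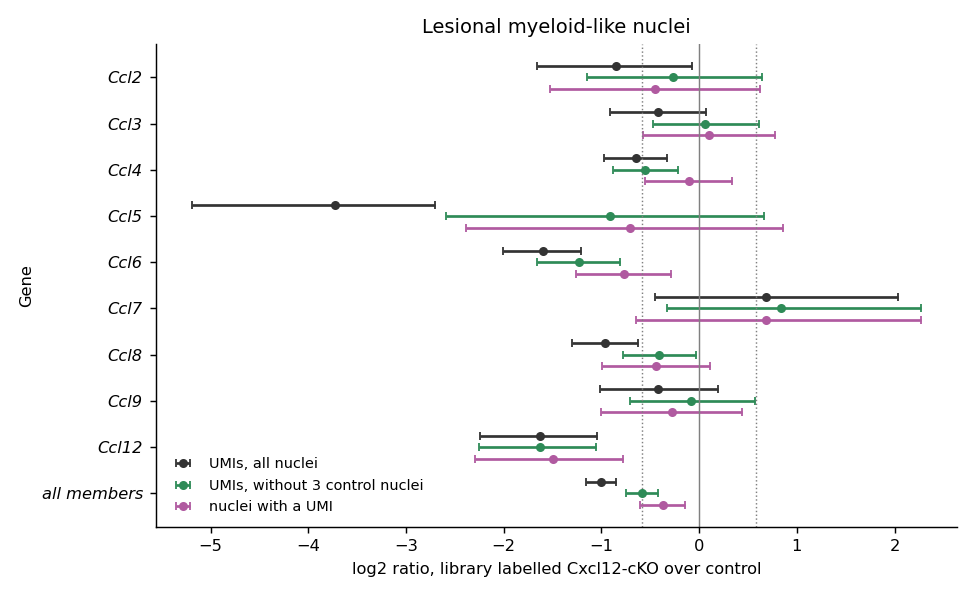
Log2 ratio of the cKO-labelled library over the control-labelled library in lesional myeloid-like nuclei (horizontal axis) for each member with enough UMIs and for their sum, with 95% intervals and dotted lines at 1.5-fold. Points give UMIs in all nuclei, UMIs without the 3 richest control-labelled nuclei, and nuclei with a UMI. Ccl12 and Ccl6 lie below 0 with their intervals on all 3 scales, and Ccl5 shifts from −3.73 to −0.91.

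Markers of other cells differed between the libraries in the same class. Of the 6 neutrophil markers, 5 had a UMI in myeloid-like nuclei, at a summed 673 CPM in the control-labelled library and 294 CPM in the cKO-labelled library, and Ly6g was at 0 in both. Microglia also express Csf3r, which is on that list. All 6 fibroblast markers had UMIs there, summed to 1003 and 643 CPM. The part of these cells in the ratios was not tested.

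Within subclusters the members differed in different places. Ccl6 was lower in the cKO-labelled library in subcluster 0 (12.5 and 3.39 CPM, log2 ratio −1.83, interval −3.26 to −0.67) and in subcluster 1 (32.8 and 13.9 CPM, −1.24, interval −1.95 to −0.54). In subcluster 4 it was also lower (281 and 46.8 CPM, 64 and 11 UMIs, −2.53, interval −3.66 to −1.65). Single nuclei held 26 and 12 of those 64 control-labelled UMIs, and the ratio there without them is not given. In the border-associated macrophage-like subcluster 3 Ccl6 was at 74.8 and 43.4 CPM, with an interval that included 0 (−2.01 to 0.32). Ccl12 was lower in the microglia-like subcluster 0, at 15.4 and 4.24 CPM (27 and 10 UMIs, log2 ratio −1.82, interval −3.07 to −0.77), and in subcluster 4, at 96.6 and 25.5 CPM (22 and 6 UMIs). It stood at 56.8 and 65.1 CPM in subcluster 3, with a ratio of 0.21 (interval −0.88 to 1.25). Ccl8 was higher in subcluster 3 by UMIs (69 and 79), with a ratio of 0.73 (interval 0.25 to 1.22), although that subcluster was 9.03% of myeloid-like nuclei in the control-labelled library and 4.94% in the other. Single nuclei held 16 of the 69 and 11 of the 79 UMIs, and a ratio by nuclei is not given for this subcluster. In subcluster 2, led by genes that include Trpm3 and Trabd2b, 29.4% of nuclei held female and male transcripts together, and Ccl4 stood at 37.9 and 6.56 CPM (35 UMIs in 8 nuclei and 9 UMIs in 5 nuclei).

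Nuclei were assigned to the female or male mouse of a library by Xist and 4 Y-linked genes, which gives 1 mouse for each sex and library. In lesional myeloid-like nuclei Ccl12 was at 17.9 CPM in the control-labelled female (33 UMIs in 668 nuclei), 7.90 CPM in the control-labelled male (12 UMIs in 529 nuclei, interval 4.08–13.8), 6.35 CPM in the cKO-labelled female (20 UMIs in 1099 nuclei) and 1.17 CPM in the cKO-labelled male (2 UMIs in 516 nuclei, interval 0.142–4.22). Within each sex the cKO-labelled mouse had the lower value, with intervals that overlapped between the males, while the control-labelled male lay close to the cKO-labelled female. Ccl6 was at 51.6 CPM in the control-labelled female (95 UMIs) and 30.9 CPM in the control-labelled male (47 UMIs, interval 22.7–41.2). Without the 3 nuclei the control-labelled female stood at 31.5 CPM (57 UMIs, interval 23.8–40.8). The cKO-labelled female had 41 UMIs (interval 9.34–17.7 CPM) and the cKO-labelled male 16 UMIs (9.36 CPM, interval 5.35–15.2), so both control-labelled mice lay above both cKO-labelled mice with and without those nuclei. Ccl8 was at 74.5 CPM in the control-labelled female (137 UMIs) and 5.93 CPM in the control-labelled male (9 UMIs, interval 2.71–11.3), with 23.5 and 13.4 CPM in the cKO-labelled female and male. Without the 3 nuclei the control-labelled female stood at 44.7 CPM (81 UMIs, interval 35.5–55.6). For this gene the 2 control-labelled mice lay on either side of both others, and the intervals of the 2 males overlapped.

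**Figure D5:**
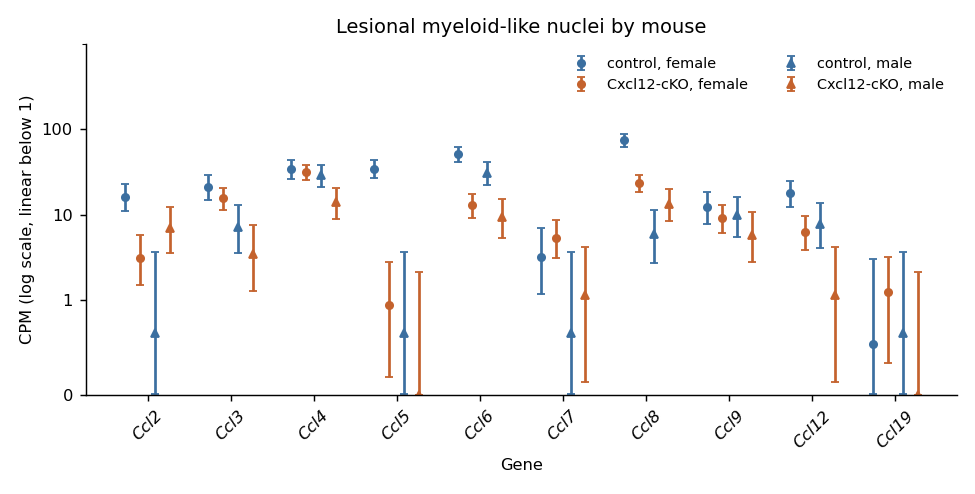
CPM of each member (vertical axis, log scale that is linear below 1) in lesional myeloid-like nuclei of each mouse, with exact 95% Poisson intervals, where circles are female, triangles male and colours the library labels. All nuclei are included. Ccl6 stands higher in both control-labelled mice, and Ccl8 ranges from 5.93 to 74.5 CPM within the control-labelled library, where the upper value is 44.7 CPM without the 3 nuclei of highest member counts.

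In lesional fibroblast-like nuclei the summed members gave 147 UMIs (10.3 CPM) in the control-labelled library and 183 UMIs (12.5 CPM) in the cKO-labelled library, with a log2 ratio of 0.28 (interval −0.04 to 0.60). By the share of nuclei with a UMI, 2.66% and 3.59%, it was 0.43 (interval 0.07 to 0.80). Of 6 members with at least 20 UMIs in the class, 0 were past 1.5-fold in the lower direction, where 4.29% of genes were, and 1 (Ccl19) in the higher direction, where 5.37% were. Their median was −0.01, beside 0.00 for the 16579 genes tested. Ccl19 gave 17 UMIs in 16 of 4176 nuclei (1.19 CPM, interval 0.693–1.90) and 48 UMIs in 43 of 4091 nuclei (3.28 CPM, interval 2.41–4.34), with a log2 ratio of 1.43 (interval 0.64 to 2.35) and the same ratio by nuclei. In the subcluster led by Lama3, Matn4 and Erg it gave 5 UMIs at 1.57 CPM and 28 UMIs at 5.58 CPM (ratio 1.71, interval 0.43 to 3.55). By mouse it was at 0.847 CPM (interval 0.275–1.98) in the control-labelled female, 2.11 CPM (interval 1.09–3.68) in the control-labelled male, 4.46 CPM (interval 2.83–6.70) in the cKO-labelled female and 3.23 CPM (interval 1.97–4.99) in the cKO-labelled male. Between the libraries the intervals were apart only for the 2 females, and the other 3 pairs of mice overlapped. Ccl2 (26 and 24 UMIs), Ccl5 (19 and 19), Ccl6 (13 and 13) and Ccl8 (26 and 27) had ratios between −0.15 and 0.02 with intervals that included 0. Myeloid markers in fibroblast-like nuclei summed to 40.0 and 45.4 CPM, against 2452 and 1901 CPM in myeloid-like nuclei.

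Ccl2 and Ccl7 were highest among fibroblast subclusters in the one led by Gm30613, Dcdc2a and Prex2. Ccl2 stood there at 6.84 CPM (8 UMIs in 4 nuclei) and 7.40 CPM (11 UMIs in 6 nuclei), and Ccl7 at 8.55 CPM (10 UMIs) and 7.40 CPM (11 UMIs). The libraries were not distinguishable there at this depth. Outside the myeloid and fibroblast classes, Ccl5 gave 21 UMIs at 78.5 CPM and 15 UMIs at 76.3 CPM in T cell-like nuclei, with a ratio of −0.03 (interval −1.10 to 0.98), and 8 and 12 UMIs at 74.3 and 70.4 CPM in dendritic-like nuclei (ratio −0.11, interval −1.49 to 1.42). Ccl2 in astrocyte-like nuclei gave 23 UMIs at 10.2 CPM and 13 UMIs at 5.21 CPM, with an interval of −2.07 to 0.08 for the ratio.

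Of the 14 other CC ligands on the list, 3 had at least 20 lesional UMIs, 8 had fewer and 3 had 0. Ccl25, a ligand of Ccr9, was counted more often than all 10 members together, with 2215 and 2116 lesional UMIs, but nearly evenly: at 61.9 and 71.3 CPM in myeloid-like, 72.0 and 73.4 CPM in fibroblast-like and 58.5 and 47.8 CPM in excitatory neuron-like nuclei. Ccl27a was higher in parenchyma, at 20.5 and 22.1 CPM, than in the lesion, at 10.0 and 9.82 CPM, and highest in excitatory neuron-like nuclei (26.6 CPM). Ccl28 gave 24 and 20 lesional UMIs. Neither Ccl25 nor Ccl27a followed the myeloid pattern of the members.

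Of the 14 receptors, 9 had at least 20 lesional UMIs, 4 had fewer and Ccr8, the receptor of mouse Ccl8, had 0. Ccr2, which Ccl2 binds, stood at 30.2 and 18.1 CPM in myeloid-like nuclei, at 179 and 214 CPM in T cell-like nuclei and at 232 and 152 CPM in dendritic-like nuclei. Ccr1, a receptor of Ccl3, Ccl5, Ccl6 and Ccl9, gave 44 and 49 UMIs in myeloid-like nuclei. Over both libraries it stood at 8.11 CPM there and was highest in dendritic-like nuclei, at 39.5 CPM. Ccr7, the receptor of Ccl19, was confined almost wholly to dendritic-like nuclei, with 16 of 19 lesional UMIs in the control-labelled library and 29 of 30 in the cKO-labelled library. Ccr9 had 222 and 250 UMIs in fibroblast-like nuclei, at 15.5 and 17.1 CPM. Over both libraries it was highest in mural-like nuclei (76.1 CPM), followed by dendritic-like nuclei (68.3 CPM). Ackr1, a non-signalling chemokine-binding receptor of venular endothelium, was highest in endothelial-like nuclei at 58.7 CPM, and Ackr4, a scavenger of Ccl19, in bone-like nuclei at 30.6 CPM. Ccr6 had 10 of its 16 UMIs in T cell-like nuclei of the cKO-labelled library, and Ccrl2 was highest in myeloid-like nuclei at 5.49 CPM.

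The genes whose profiles were most like those of the members were found over 37 profiles, the 21 clusters and the subclusters contained in them, so the profiles overlap. By Pearson's r of log2(CPM + 1), a description across profiles, Ccl6 was most like Clec4a2 (0.917), Cd300ld (0.909) and Fcgr4 (0.893), and Ccl12 most like Ltc4s (0.882), Siglec1 (0.868) and Ninj1 (0.837). Ccl3 was most like Olr1 (0.895), Apoc2 (0.888) and Serpinb1c (0.888), and Ccl4 most like Brpf1 (0.900), Cxcr4 (0.883) and Lyl1 (0.882). Ccl5 was most like Slfn1 (0.900), Irf7 (0.855) and Clec2i (0.852), and Ccl9 most like Tagap (0.893), H2-Aa (0.856) and Alox5ap (0.852). For Ccl2 the leading genes were Tmem37 (0.830), G530011O06Rik (0.817) and Galnt4 (0.814), and for Ccl7 they were G530011O06Rik (0.774), Zfp972 (0.771) and Gm47601 (0.750). For Ccl8 they were Tpt1 (0.785), Itm2b (0.785) and Atox1 (0.784). The profiles of Ccl7 and Ccl8 had the lowest likeness to any other gene among the 9 members with at least 100 lesional UMIs.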

How the data were processed

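The authors ran Cell Ranger 9.0.0 on GRCm39 for single-nucleus libraries made with 3′ chemistry and deposited 4 filtered matrices of raw UMI counts (lesion and parenchyma by genotype). Barcodes in the outer 2.5% by UMIs or genes, or the top 2.5% by mitochondrial share, were removed. Nuclei were clustered by Leiden (leidenalg 0.10.2, Scanpy 1.11.5) at resolution 0.25 on 3000 variable genes and 30 principal components, without the CC genes, and clusters were named from marker lists as X-like. Scrublet called at most 19 barcodes in a matrix and had not worked, so no doublet was removed.

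Counts were summed by class and library. CPM carry exact Poisson intervals and shares exact Clopper-Pearson intervals. Log2 ratios had 0.5 added to each sum and exact conditional binomial intervals, and all assume independent UMIs. A gene was counted past 1.5-fold only with at least 20 UMIs. No significance test was made, since each genotype had 1 library. The script for the ratios was first run on simulated counts. All 10 members, all listed CC genes with at least 20 lesional UMIs and the 3 genes most like each member were to be named. The members and lists were chosen with earlier results of these data known. Nuclei were set to 1 mouse by Xist and Y-linked genes. There were 15 alternatives planned and 3 added after seeing the data. Tag libraries were not used here. RefSeq names and neighbours are of GRCm38.p6, so no coordinates are given. Some results that the naming rule covers are not reported here.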

Additional observations from a re-analysis of the deposited data

Results flagged for a closer look

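In 3 cases the female and the male mice pointed in opposite directions by UMIs, with both counting intervals away from 0. Each sex had 1 mouse in a library and the difference between the sexes was not tested. Ccl2 in lesional myeloid-like nuclei had a log2 ratio, library labelled Cxcl12-cKO over control, of −2.31 in the female mice (30 against 10 UMIs) and 2.89 in the male mice (1 against 12 UMIs). The male value rested on 1 and 5 nuclei, and by nuclei its interval was −0.80 to 7.92. Ccl8 in the same class had −1.66 in the female mice (137 against 74 UMIs) and 1.14 in the male mice (9 against 23 UMIs). By nuclei, 9 of 529 and 12 of 516, the male interval was −0.92 to 1.88, which includes 0. In the control-labelled female, single nuclei held 55 of the Ccl8 and 11 of the Ccl2 UMIs, and without the 3 nuclei of highest member counts the female ratios were −0.93 and −1.69. Ccl7 in lesional fibroblast-like nuclei had 3.82 in the female mice (1 against 18 UMIs) and −1.24 in the male mice (18 against 8 UMIs). By nuclei the female ratio was 3.43 (1 and 13 nuclei) and the male ratio −0.78 (12 and 7 nuclei, interval −2.40 to 0.64), so by nuclei the male interval included 0 in all 3 cases.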

How the results depend on the processing

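No paired analysis was possible because each genotype had 1 library and the labels number no replicates. The summed log2 ratio in lesional myeloid-like nuclei, −1.00 as reported, was below 0 under all alternatives run. It was −0.46 with nuclei weighted alike, −0.72 with subcluster shares held fixed, −1.28 in females and −0.75 in males. Among alternatives chosen after seeing the data, it was −0.37 by nuclei with a UMI, −0.59 without the nuclei with over 50 member UMIs and −0.61 without subcluster 4. In fibroblast-like nuclei (0.28) it was 0.98 with no filter on barcodes, 0.81 in females and −0.05 in males. Over all lesional nuclei (−0.20) it was −0.03 with no filter, −0.05 with nuclei weighted alike, 0.02 by nuclei with a UMI, and 0.09 both without the nuclei with over 50 UMIs and without subcluster 4. The 6 members past 1.5-fold lower became 3 in the male mice, at 2-fold, by nuclei with a UMI and without subcluster 4, and 2 without the nuclei with over 50 UMIs. The 1 member higher became 2 at a minimum of 10 UMIs, and 0 at a minimum of 50 UMIs, at 2-fold, with nuclei assigned by their own markers and without subcluster 4. The myeloid-like share of UMIs in the control-labelled library (72.3%) was 55.7% with nuclei assigned by their own markers, 75.3% once the highest Scrublet scores were left out, 79.3% in its female and 58.2% in its male, 66.0% without the nuclei with over 50 UMIs and 62.4% without subcluster 4. In the cKO-labelled library (66.3%) it was 48.2% by own markers, 58.3% with no filter, 72.8% in its female and 48.5% in its male, and 62.5% without subcluster 4. Among single genes past 1.5-fold, Ccl2 (2.89) and Ccl8 (1.14) in myeloid-like nuclei of the male mice had the opposite direction. Single genes within 1.5-fold also changed sign, such as Ccl7 in fibroblast-like nuclei (0.56, and −1.24 in the male mice) and Ccl3 in myeloid-like nuclei (−0.42, and 0.38 with nuclei weighted alike). The cause was not tested.

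Most members had under 100 UMIs in a class and library, so many ratios could not be told from 0 at this depth. Intervals assume independent UMIs, which nuclei with many UMIs break. With 1 library for each genotype, no difference can be set against the spread between libraries, and each library held 1 mouse of each sex. Lesional nuclei were shallower than parenchymal nuclei.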
